A study of Homo sapiens with 2 samples.

Results

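TRIM60, TRIM43, TRIM48, RFPL1, RFPL2, RFPL4A and RFPL4B are genes of the RFPL and TRIM families that are known from the human embryo at genome activation. The 7 genes were chosen by name, and each was found once among the 36601 genes of both matrices. Cells entered the description if they had 1000 or more genes with a UMI and less than 20% mitochondrial (MT-) UMIs. A UMI is a molecular barcode, so its count stands for captured transcripts and not for reads.

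By its title, the study asks how LINE1 and PRC2 repress the 8C state, which is named after the 8-cell embryo, in human embryonic stem cells. Cells of H9, an established line of such cells, received 25 nM of a fluorescein-labelled oligonucleotide named ASO_L1 or SO_L1. Each group is 1 library of 1 cell line. The RSeT medium of both groups held DZNep at 10 nM and TSA at 5 nM, so the SO_L1 cells carried these agents too. Both also had 0.7 µM Trans-ISRIB, 5 µM Emricasan and 10 µM Y-27632, which were removed after 24 hours. At 48 hours 100000 dye-positive cells were sorted, with 12000 cells aimed for and over 65000 reads per cell. With 1 library per group there is no replicate check and no test, and all intervals below are 95% intervals of counting error only.

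TRIM proteins carry a RING finger, B-box and coiled-coil domains, and many act as ubiquitin ligases. RFPL proteins (ret finger protein-like) resemble them, with a RING-type finger and a B30.2/SPRY domain. In human embryos several of these genes are switched on together with the homeobox gene TPRX1 and the zinc finger gene ZSCAN4 around genome activation, and the transcription factor DUX4 can activate some of them. In mice the related Rfpl4 protein is found in oocytes and early embryos.

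Several members have near-identical copies elsewhere in the genome, which bears on every count below, so a stretch of coding sequence is shown for each such set. RFPL1 (ENSG00000128250, chr22:29438583-29442455, plus strand) and RFPL2 (ENSG00000128253, chr22:32190435-32203477, minus strand) share 94.1% of aligned coding bases with each other. RFPL3 (chr22:32354885-32361161) shares 95.8% with RFPL1 and 95.9% with RFPL2. The stretches run 5′ to 3′ in GENCODE 29 (GRCh38), over 60 coding bases starting at base 241 of RFPL1 and RFPL3 and at base 424 of RFPL2, and capitals mark the 7 positions at which the 3 genes differ.
RFPL1, chr22:29439032-29439091: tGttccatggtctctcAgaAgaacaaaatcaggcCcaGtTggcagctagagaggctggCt
RFPL2, chr22:32192975-32193034: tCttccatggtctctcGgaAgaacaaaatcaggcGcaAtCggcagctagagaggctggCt
RFPL3, chr22:32358312-32358371: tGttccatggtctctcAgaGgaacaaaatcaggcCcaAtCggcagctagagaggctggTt

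RFPL4A (ENSG00000223638, chr19:55759014-55763175, plus strand) and its neighbour RFPL4AL1 (chr19:55769141-55773179) share 99.4% of coding bases. The stretch of coding bases 241 to 300 crosses an intron, and the capital marks the only differing base in it.
RFPL4A, chr19:55762041-55762611: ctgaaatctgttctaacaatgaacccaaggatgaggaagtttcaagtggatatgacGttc
RFPL4AL1, chr19:55772045-55772615: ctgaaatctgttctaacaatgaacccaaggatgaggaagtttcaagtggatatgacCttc

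TRIM43 (ENSG00000144015, chr2:95592018-95599778, plus strand) and TRIM43B (chr2:95476967-95484731, minus strand) share 99.5%, and the same stretch of coding bases 241 to 300 holds no difference.
TRIM43, chr2:95594264-95594323: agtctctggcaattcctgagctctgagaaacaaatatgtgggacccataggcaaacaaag
TRIM43B, chr2:95482415-95482474: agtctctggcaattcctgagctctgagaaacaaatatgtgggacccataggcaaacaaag

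The library chemistry reads transcripts near their 3′ end, so the last 500 bases of each member's transcript were compared with all other GENCODE 29 genes. In TRIM43, 88.0% of the 50-base windows there occurred in another gene, and in RFPL4A 68.5% did. The share was 20.6% in TRIM48 (ENSG00000150244, chr11:55262182-55271119, plus strand), 10.9% in RFPL2 and 4.43% in RFPL1. It was 0% in TRIM60 (ENSG00000176979, chr4:165016458-165041744, plus strand) and in RFPL4B (ENSG00000251258, chr6:112347330-112351296, plus strand). The sources used here do not say how reads that fit several genes were counted, so values of TRIM43 and RFPL4A are uncertain as to which copy they belong to.

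Promoters were available for 4 of the 7 members, and those of TRIM48 and RFPL4A are shown because they hold the DUX4 motif. The windows are RefSeq sequences on GRCh38.p14, from 250 bases before to 50 after the gene start, on the gene's strand, with the motif in capitals.
TRIM48, chr11:55261905-55262204: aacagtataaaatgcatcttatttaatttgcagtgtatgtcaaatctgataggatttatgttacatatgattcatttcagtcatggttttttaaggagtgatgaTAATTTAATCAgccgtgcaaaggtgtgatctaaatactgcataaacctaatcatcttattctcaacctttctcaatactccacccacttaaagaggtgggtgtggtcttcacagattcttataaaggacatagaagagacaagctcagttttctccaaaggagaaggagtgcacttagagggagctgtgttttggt
RFPL4A, chr19:55758847-55759146: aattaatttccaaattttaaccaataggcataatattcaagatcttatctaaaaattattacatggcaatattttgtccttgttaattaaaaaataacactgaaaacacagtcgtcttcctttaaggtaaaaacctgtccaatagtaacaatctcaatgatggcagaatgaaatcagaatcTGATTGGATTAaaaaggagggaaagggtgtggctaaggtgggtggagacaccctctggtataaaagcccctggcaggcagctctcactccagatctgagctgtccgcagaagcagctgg
Both strands were searched. The motif begins 146 bases before the TRIM48 start and 69 bases before the RFPL4A start. It also occurs in RFPL4AL1, whose window matched that of RFPL4A at 98.2% of aligned bases, and in TRIM49B, TRIM49D1, TRIM49D2 and TRIM51. Neither the RFPL4B window nor the RFPL2 windows hold it, and 0.239% of all 35116 promoter windows of that length do. The letters TAATCC, a homeodomain sequence found in 6.36% of windows, occurred in RFPL4A on the opposite strand, inside the DUX4 motif. A match describes letters only. DUX4 itself had 1 UMI in ASO_L1 cells and 0 in SO_L1 cells.

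The filter kept 9084 ASO_L1 cells and 6553 SO_L1 cells, with medians of 53959.5 and 42314 UMIs per cell. Cells were split at an MT- share of 2%. Below 2% lay 2531 ASO_L1 and 1857 SO_L1 cells, with median MT- shares of 0.133% and 0.148%. At 2% or more lay 6553 ASO_L1 and 4696 SO_L1 cells. The pluripotency gene POU5F1 had a UMI in 97.5% of ASO_L1 and 96.8% of SO_L1 cells. The libraries shared 6105 barcode sequences, and 274 were kept in both. Of these, 264 had fewer UMIs in SO_L1 and 10 in ASO_L1, with a median ratio of 72.8 between the copies. The smaller copies held 0 member UMIs, and 5 SO_L1 cells among them held 1 TPRX1 UMI each. Levels are given as CPM, a gene's UMIs scaled to the total of its library. The total holds all genes over all kept cells, and leaves out MT- genes within MT- classes and between TPRX1-positive and TPRX1-negative cells.

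Over all kept cells, 3 of the 4 members with at least 50 UMIs in the libraries together (TRIM60, RFPL1 and RFPL2) were at least 2-fold higher in the ASO_L1 library, and 1, RFPL4B, was lower. Among all 24930 genes with that many UMIs, 8.40% passed that line upwards and 6.46% downwards. The median log2 ratio of those 4 members was 2.09, and that of all genes measured was -0.02. TRIM43, TRIM48 and RFPL4A had 29, 30 and 37 UMIs in all and fell under the minimum. Other marker lists moved with the library too. Of the 5 interferon response genes measured, 4 were at least 2-fold lower in ASO_L1, at ratios of 0.379 (IFIT1), 0.262 (IFIT2), 0.237 (IFIT3) and 0.285 (OAS1). Of the mesoderm markers 2 of 5 were at least 2-fold higher (GSC 12.2, LHX1 5.87), of primitive endoderm markers 2 of 4 (GATA6 8.42, FOXA2 3.07), of trophectoderm markers 1 of 5 (CLDN4 3.29) and of oocyte markers 1 of 5 (GDF9 3.06). None of the 2 fibroblast and 7 pluripotency markers measured passed 2-fold over all kept cells, while SOX2 (0.447) and DNMT3B (0.438) were lower in ASO_L1 below 2% MT-. Their part in the members' difference was not tested. In bulk sums of this kind, more cells of a type and more RNA per cell cannot be told apart, so shares of cells are given as well.

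TRIM60, a TRIM protein of chromosome 4 with no close copy in its 3′ window, was the member found in most cells. It had 808 UMIs in 317 ASO_L1 cells and 202 UMIs in 89 SO_L1 cells. Its level was 1.62 CPM in ASO_L1 and 0.739 CPM in SO_L1, a ratio of 2.19 (1.88 to 2.57). In cells below 2% MT- it had 5.11 CPM in ASO_L1 and 2.54 in SO_L1, a ratio of 2.01 (1.68 to 2.42). At 2% or more it had 0.629 CPM in ASO_L1 and 0.267 CPM in SO_L1, a ratio of 2.36 (1.74 to 3.25). With the class cut at 5% MT- instead, the ratio of the upper class was 1.32 (0.939 to 1.88), an interval that includes no difference. With the stricter cell filter of 2000 genes and 10% MT- the ratio was 1.87, under the 2-fold line. Its UMIs were spread thinly: no ASO_L1 cell held more than 18, and the 10 cells with most held 15.8% of them.

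RFPL1 and RFPL2, close in sequence and both on chromosome 22, had larger ratios than TRIM60 and intervals that did not overlap with its own. RFPL1 had 666 UMIs in 173 ASO_L1 cells and 44 UMIs in 12 SO_L1 cells, which is 1.33 and 0.161 CPM and a ratio of 8.29 (6.11 to 11.5). RFPL2 had 820 UMIs in 156 ASO_L1 cells and 52 UMIs in 25 SO_L1 cells, 1.64 and 0.190 CPM, a ratio of 8.64 (6.52 to 11.7). Both were thus detected in fewer ASO_L1 cells than TRIM60 although their UMI sums were of similar size. Their UMIs sat in few cells. In ASO_L1 the highest cell held 75 RFPL1 UMIs and another 93 RFPL2 UMIs, and the 10 cells with most held 49.2% and 50.7% of each gene's total. The intervals treat UMIs as independent and leave out this clustering. In SO_L1 the 10 cells with most held 95.5% of RFPL1, 71.2% of RFPL2 and 43.1% of TRIM60 UMIs, so leaving out 10 cells from each library takes a larger share from SO_L1 and raises the ratio by construction. The ratio was then 14.7 for RFPL2, 92.5 (25.4 to 767) for RFPL1 on 2 SO_L1 UMIs, and 3.24 for TRIM60. Without any barcode present in both libraries it was 13.8 for RFPL2, 11.3 for RFPL1 and 2.25 for TRIM60.

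Both RFPL genes were higher in ASO_L1 within each MT- class. In cells below 2%, RFPL1 had 522 UMIs in ASO_L1 and 40 in SO_L1, a ratio of 6.74 (4.89 to 9.55). RFPL2 had 586 and 34 there, a ratio of 8.91 (6.30 to 13.0), and with the cut at 1% it was 16.2 below the cut and 4.62 above it. At 2% or more RFPL1 had 144 UMIs in ASO_L1 and 4 in SO_L1, a ratio of 19.7 (7.52 to 73.2). RFPL2 had 234 and 18 there, a ratio of 7.11 (4.40 to 12.2), with 93 of the 234 in 1 cell. That cell had 8.94% MT- UMIs and 87 TPRX1 UMIs. All 3 measured members passed the 2-fold line upwards in both classes. Of the 21431 genes measured below 2%, 13.0% passed it upwards and 13.8% downwards, and of the 23608 at 2% or more 5.74% and 5.18% did.

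**Figure D1:**
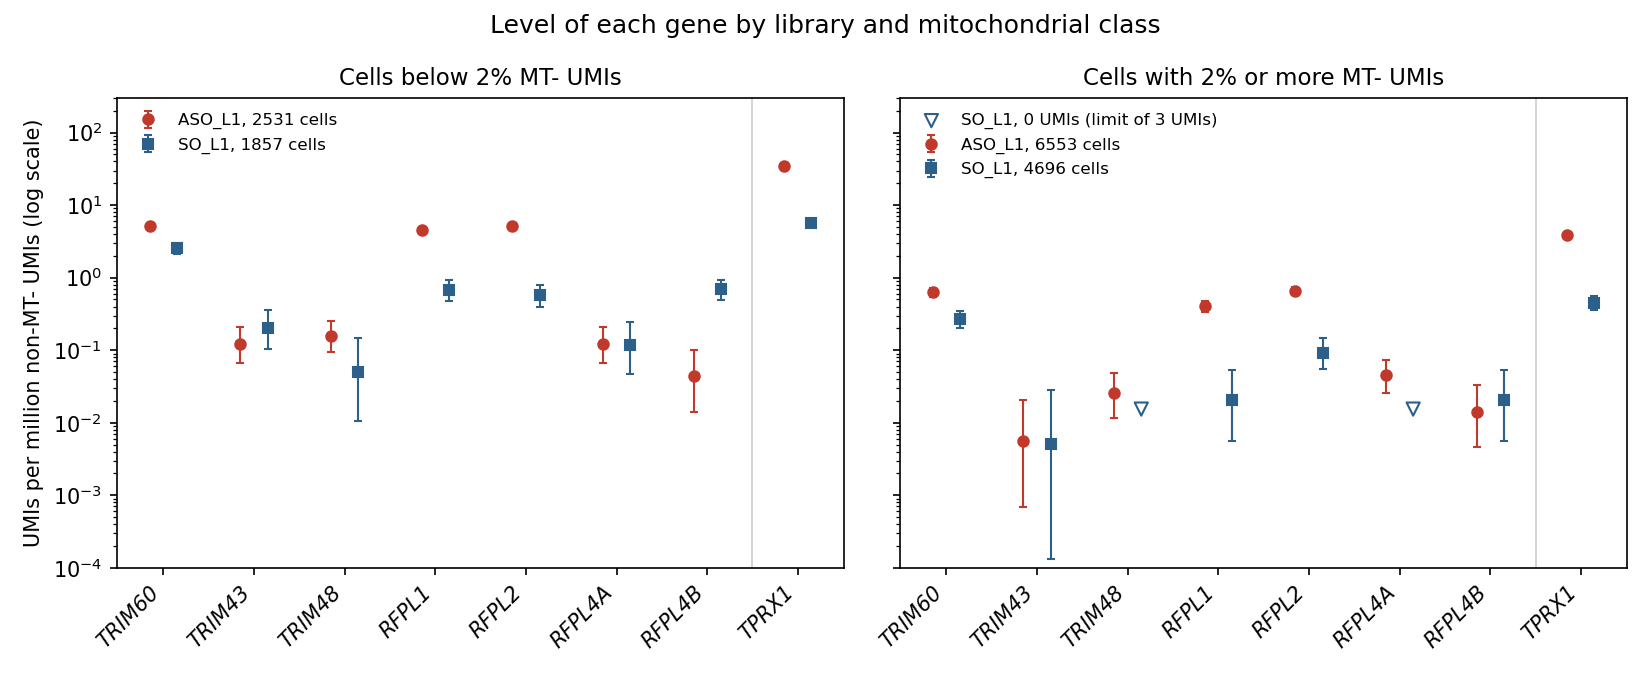
Level of each gene in CPM of non-MT- UMIs (log axis) in the ASO_L1 (circles) and SO_L1 (squares) libraries, below 2% MT- (left) and at 2% or more (right), 1 library each, with bars for exact Poisson 95% intervals and open triangles for 0 UMIs at the limit that 3 UMIs give. TRIM60, RFPL1, RFPL2 and TPRX1 lie higher in ASO_L1 in both panels, and RFPL4B lies lower in ASO_L1 below 2%, where all 41 SO_L1 UMIs came from 1 cell.

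TRIM43, TRIM48, RFPL4A and RFPL4B were rare, and their SO_L1 values rest on 1 cell. TRIM43 had 16 UMIs in 10 ASO_L1 cells and 13 UMIs in 2 SO_L1 cells, a ratio of 0.674 (0.304 to 1.52). TRIM48 had 27 UMIs in 20 ASO_L1 cells and 3 UMIs in 1 SO_L1 cell, a ratio of 4.93 (1.52 to 25.4). RFPL4A, with 30 UMIs in 23 ASO_L1 cells and 7 UMIs in 2 SO_L1 cells, had a ratio of 2.35 (1.01 to 6.33). RFPL4B was the only one of the 7 with most of its UMIs in SO_L1: 10 UMIs in 7 ASO_L1 cells and 45 UMIs in 2 SO_L1 cells, a ratio of 0.122 (0.0547 to 0.245).

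A single SO_L1 cell held 12 of the 13 TRIM43 UMIs, all 3 of TRIM48, 6 of the 7 of RFPL4A and 41 of the 45 of RFPL4B. It also held 3 of TRIM60 and none of RFPL1 or RFPL2. The cell had 16710 UMIs and 1.10% MT-, and its barcode was absent from the ASO_L1 library. It had 0 TPRX1 UMIs, yet 42 of ZSCAN4, 200 of the histone variant H3.Y, 27 of MBD3L2, 22 of SLC34A2 and 15 of TRIM49. For MBD3L2 and TRIM49 these were all the UMIs of the SO_L1 library, and for ZSCAN4 they were 42.9% of them. KHDC1L had 2 UMIs in this cell, of 2788 in the library, a level 11.7-fold that of the library's other cells. These genes were named after their values were seen. The cell was picked for its member UMIs and left out of SO_L1 alone, which raises the ratios of these 4 genes by construction. The 5 ASO_L1 cells with 5 members stayed in. Without the cell, RFPL4B stood at 10 UMIs in ASO_L1 against 4 in SO_L1. Its ratio was 1.37 (0.395 to 5.98), an interval that includes no difference. TRIM43 then had 16 against 1, a ratio of 8.76 (1.36 to 367), and RFPL4A 30 against 1, a ratio of 16.4 (2.73 to 670). TRIM48 had 27 against 0, at least 4.93-fold higher when a floor of 3 UMIs per library stands for the 0. The SO_L1 values of these 4 genes thus came almost wholly from 1 cell.

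Cells below 2% MT- carried most of the member RNA. In ASO_L1, 12.5% of them (11.3% to 13.9%) had a UMI of any member, against 3.62% (3.18% to 4.10%) at 2% or more. In SO_L1 the shares were 3.66% (2.85% to 4.62%) below 2% and 1.11% (0.828% to 1.45%) at 2% or more. Cells below 2% had fewer UMIs, with medians of 44720 against 56296 in ASO_L1 and 33612 against 45154 in SO_L1. After thinning each cell to 8000 UMIs the shares were 5.50% below 2% and 0.901% at 2% or more in ASO_L1. In SO_L1 they were 1.54% and 0.230%. Both orders, of classes within a library and of libraries within a class, stayed as before. Thinning left out 296 and 224 shallower ASO_L1 cells in the classes below 2% and at 2% or more, and 303 and 346 SO_L1 cells.

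As CPM, TRIM60 was 8.12-fold (6.95 to 9.51) higher below 2% than at 2% or more in ASO_L1 and 9.51-fold (6.89 to 13.3) in SO_L1. RFPL1 was 11.3-fold (9.37 to 13.7) higher in ASO_L1 and 33.0-fold (11.9 to 127) in SO_L1, the last on 40 and 4 UMIs. RFPL2 was 7.80-fold (6.69 to 9.11) higher in ASO_L1 and 6.22-fold (3.42 to 11.7) in SO_L1. All 3 were at least 2-fold higher in ASO_L1, and TRIM60 and RFPL2, the members measured in SO_L1, were so there. The share of all measured genes at least 2-fold higher below 2% was 16.3% in ASO_L1 and 10.7% in SO_L1. TPRX1 moved with the class as well, at 8.77-fold in ASO_L1 and 12.7-fold in SO_L1. So did other marker lists: in ASO_L1, 4 of 5 measured trophectoderm markers and 4 of 4 measured interferon response genes were at least 2-fold higher below 2%, and 4 of 7 pluripotency markers were at least 2-fold lower. Both measured fibroblast markers (COL1A1 4.06, COL1A2 2.29) and 3 of 5 mesoderm markers (GSC 6.32, EOMES 2.85, LHX1 7.42) were also higher there. So were 2 of 4 oocyte markers and 1 of 4 primitive endoderm markers, with 1 of the last 4 lower. In SO_L1, 2 of 5 trophectoderm markers, 5 of 5 interferon response genes and both fibroblast markers (2.82 and 2.53) were higher below 2%. Of primitive endoderm markers 1 of 3 was higher, of 1 mesoderm and 3 oocyte markers 0 were, and 1 of 7 pluripotency markers was lower. The part of any of these in the members' class difference was not tested.

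TPRX1 was detected in 800 of 9084 ASO_L1 cells and 155 of 6553 SO_L1 cells. Of the TPRX1-positive cells, 232 of 800 in ASO_L1 (25.9% to 32.3%) and 17 of 155 in SO_L1 (6.52% to 17.0%) had a UMI of any member. Among TPRX1-negative cells the shares were 3.89% (3.48% to 4.33%) in ASO_L1 and 1.61% (1.32% to 1.95%) in SO_L1. Median depth was 60544.5 UMIs in TPRX1-positive against 53443.5 in TPRX1-negative ASO_L1 cells, and 47919 against 42251 in SO_L1. In thinned cells the shares were 26.4% against 1.21% in ASO_L1 and 21.4% (8.30% to 41.0%) against 0.477% in SO_L1, the last on 28 TPRX1-positive cells. Thinned, the interval of the SO_L1 share covers the ASO_L1 share.

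TPRX1-negative cells with 2% or more MT- were set beside these shares, as cells with few 8C transcripts. Of the 71 such ASO_L1 cells with TRIM60, 50 had another 8C marker, and 1 cell of the set held 13 UMIs of members together. No share with a marker is given for all cells of the set, and the part of free RNA in them was not tested. In this set, 2.81% of ASO_L1 cells (median 55906 UMIs) and 1.10% of SO_L1 cells (median 45024) had a member UMI. TPRX1-positive cells of the same class reached 17.3% (13.6% to 21.6%) in ASO_L1. In SO_L1 they stood at 1.30% (0.0329% to 7.02%), 1 of 77 cells. That interval covers the 1.10%, so it does not show whether these shares differ. Below 2% MT-, 38.8% of TPRX1-positive ASO_L1 cells and 20.5% (12.2% to 31.2%) of TPRX1-positive SO_L1 cells had a member UMI, against 7.06% and 2.92% of TPRX1-negative cells in the same libraries.

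The share of cells with a member was higher with a higher number of TPRX1 UMIs. In ASO_L1 it was 3.89% with no TPRX1 UMI, 12.5% with 1, 28.7% with 2 to 4 and 58.1% (51.7% to 64.4%) with 5 or more. In SO_L1 the series was 1.61%, 5.38%, 25.0% and 53.8% (25.1% to 80.8%), on 6398, 130, 12 and 13 cells. Cells with 5 or more TPRX1 UMIs thus had members about as often in either library, with a wide interval in SO_L1. The libraries differed in how many such cells they held, 246 in ASO_L1 and 13 in SO_L1. In the ASO_L1 cells with 5 or more, TRIM60 was found in 48.4%, RFPL1 in 24.4%, RFPL2 in 17.5%, TRIM48 in 6.10%, TRIM43 in 3.25% and RFPL4A in 1.63%. RFPL4B was found in 0 of those 246 cells, which allows up to 1.22% of cells with a UMI and sets no limit on cells that express the gene.

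**Figure D2:**
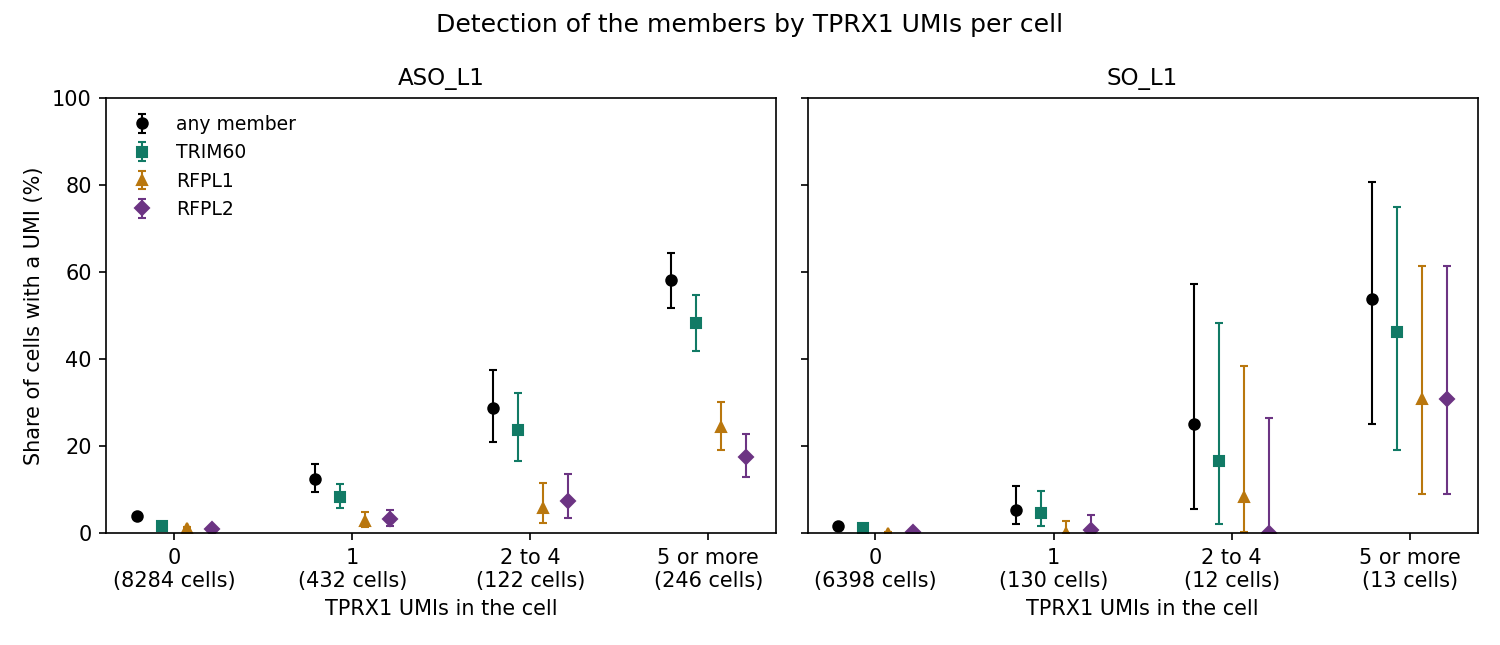
Share of kept cells with a UMI of any member, TRIM60, RFPL1 or RFPL2 (percent, with exact 95% binomial bars) by the number of TPRX1 UMIs in the cell, in ASO_L1 (left) and SO_L1 (right). The share with any member reaches 58.1% in ASO_L1 and 53.8% in SO_L1 at 5 or more TPRX1 UMIs, the last on 13 cells.

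The members differed in how far their UMIs lay in TPRX1-positive cells. In ASO_L1, RFPL2 had 711 of 820 UMIs there, RFPL1 542 of 666 and TRIM60 580 of 808. TRIM43 had 15 of 16, TRIM48 25 of 27, RFPL4A 17 of 30 and RFPL4B 0 of 10. Counted as cells, 184 of 317 TRIM60-positive, 79 of 173 RFPL1-positive and 66 of 156 RFPL2-positive ASO_L1 cells had TPRX1. Most TPRX1-negative member cells held a single UMI: 84 of the 90 TPRX1-negative RFPL2 cells, 73 of 94 for RFPL1 and 102 of 133 for TRIM60 had 1 UMI of the gene. As CPM, TPRX1-positive over TPRX1-negative ASO_L1 cells, the ratio was 55.3 (45.2 to 68.3) for RFPL2, 37.1 (30.5 to 45.4) for RFPL1 and 21.6 (18.5 to 25.3) for TRIM60. All 3 passed the 2-fold line, as did 7.31% of the 23540 genes measured there.

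In SO_L1 the order was another, on few cells. Of the RFPL1 UMIs in TPRX1-positive cells, 15, 15 and 2 lay in 3 cells, which also held 5, 1 and 17 of the RFPL2 UMIs. RFPL1 had 37 of 44 UMIs in TPRX1-positive cells, a ratio of 174 (76.8 to 464). RFPL2 had 26 of 52, a ratio of 33.0 (18.4 to 59.1), and TRIM60 had 71 of 202, a ratio of 17.9 (13.2 to 24.1). TRIM60 and RFPL2, the members measured there, passed the 2-fold line, as did 5.85% of all genes. RFPL4A, RFPL4B, TRIM43 and TRIM48 had 0 UMIs in the 155 TPRX1-positive SO_L1 cells, which allows up to 1.94% of cells with a UMI of each, and no statement on expression below detection.

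TPRX1-negative cells with a member were looked at by other 8C markers, 10 genes (ZSCAN4, LEUTX, DUXA, DUXB, ZNF280A, KHDC1L, SLC34A2, FAM151A, KLF17 and CCNA1). Of 322 such ASO_L1 cells, 230 had at least 1 of these markers and 92 had none. Of 103 such SO_L1 cells, 52 had at least 1 and 51 had none. Among all TPRX1-negative ASO_L1 cells, 3576 had none, 3191 had 1, 1198 had 2, 280 had 3 to 4 and 39 had 5 or more. In SO_L1 these numbers were 4743, 1476, 155, 21 and 3. Markers were thus common among TPRX1-negative ASO_L1 cells at large, and less so in SO_L1. Among TPRX1-negative ASO_L1 cells the share with a member was 2.57% with no marker, 3.54% with 1, 5.26% with 2, 12.5% with 3 to 4 and 48.7% (32.4% to 65.2%) with 5 or more, the last on 39 cells with a median of 20874 UMIs. In SO_L1 it was 1.08%, 1.90%, 17 of 155 cells, 4 of 21 cells and 3 of 3 cells. TPRX1-positive ASO_L1 cells with none of the other markers had a member in 5.08% (1.89% to 10.7%), and those with 5 or more in 76.0% (68.9% to 82.2%). The interval of the first of these shares covers that of TPRX1-negative cells with no marker, 2.57%.

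**Figure D3:**
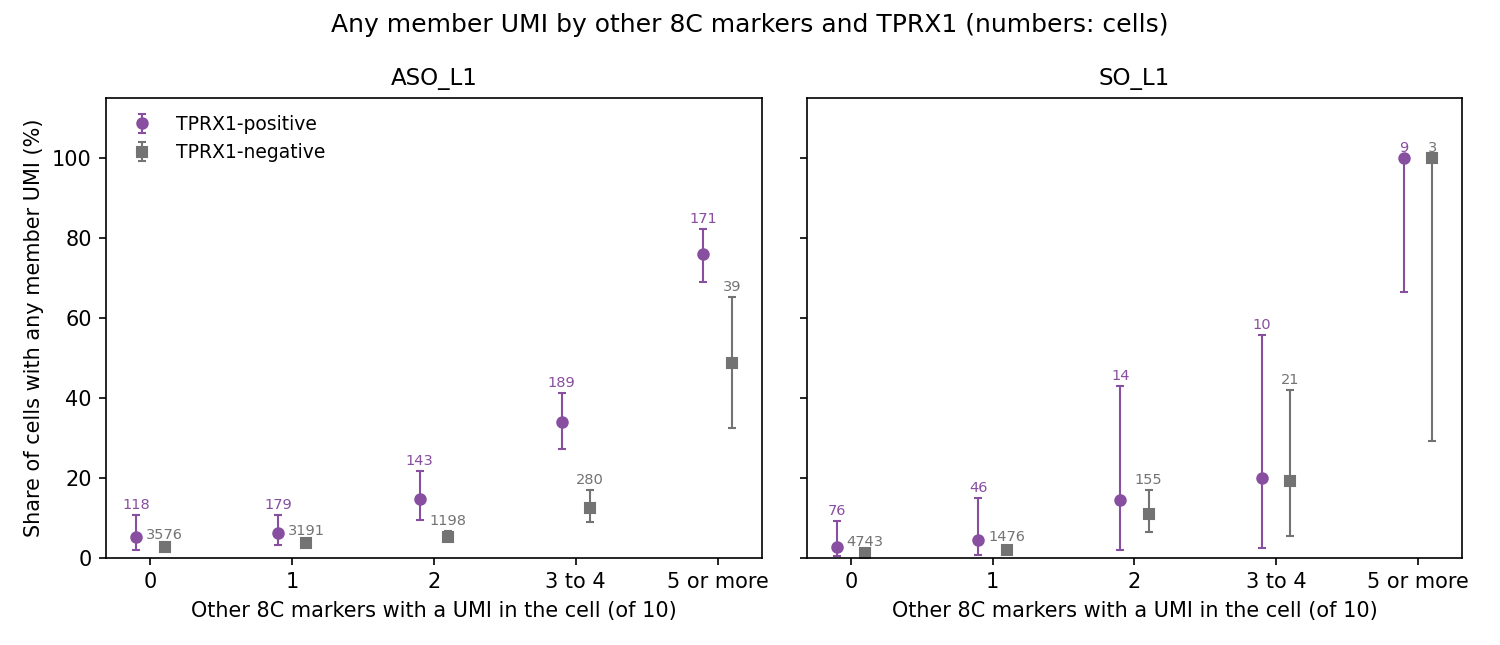
Share of cells with any member UMI (percent, exact 95% binomial bars) by how many of 10 other 8C markers had a UMI, for TPRX1-positive (circles) and TPRX1-negative (squares) cells of ASO_L1 (left) and SO_L1 (right), with the number of cells above each point. In ASO_L1 the share reaches 76.0% in TPRX1-positive and 48.7% in TPRX1-negative cells with 5 or more markers.

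In cells with none of the 10 markers and no TPRX1, TRIM60 was found in 0.811% of ASO_L1 and 0.717% of SO_L1 cells, with medians of 51039.5 and 41367 UMIs. RFPL2 was found in 1.01% and 0.274% of the same cells, and RFPL1 in 0.671% and 0.0422%. The TRIM60 shares lay within each other's intervals, which began at 0.544% in ASO_L1 and 0.497% in SO_L1. Those of RFPL1 did not (0.430% to 0.997% in ASO_L1 and 0.00511% to 0.152% in SO_L1). Whether free RNA gave these single UMIs was not tested.

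Cells that held a member together with TPRX1 were set against cells of their library with neither. In the 232 such ASO_L1 cells all 9 measured 8C markers were at least 2-fold higher, with a median log2 ratio of 6.71 and a summed level of 3325 against 98.7 CPM. ZSCAN4 was at 63.1 CPM and KHDC1L at 1631 CPM in these cells. The groups differ in MT- class: 169 of the 232 cells lay below 2%, against 1947 of the 7962 cells with neither, so values within each class are given as well. Pluripotency markers summed to 1199 against 2770 CPM over all, with 5 of 7 at least 2-fold lower. Within a class 2 of 7 were, with sums of 819 against 1657 CPM below 2% and 1892 against 3055 CPM at 2% or more. The 8C markers were higher in both classes, 9 of 9 below 2% and 8 of 8 at 2% or more. No share of all genes passing 2-fold is given for comparisons with cells that hold neither. The counts per marker list, here and below, thus stand without a background.

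Markers of other cell types moved in these cells as well. Oocyte markers summed to 66.7 against 27.7 CPM with 3 of 4 measured higher, and BMP15 was at 0. Within the classes, 2 of 3 measured oocyte markers were higher below 2% MT- and 2 of 4 at 2% or more. Of trophectoderm markers 2 of 5 were higher, while their sum, mostly KRT18, was 491 against 482 CPM and CDX2 was at 0. Below 2% MT- 1 of the 5 was higher and 2 were lower, and at 2% or more 3 were higher, so this list did not move one way in both classes.

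Of mesoderm markers 3 of 5 were higher over all, with a median log2 ratio of 1.13 and TBXT at 0, and GSC had 8.16 against 0.215 CPM. Below 2% 1 of 3 measured was higher and 1 lower, and at 2% or more 2 of 4 were higher. Of primitive endoderm markers 3 of 4 were lower and 1 higher over all, with a median log2 ratio of -1.61 and FOXA2 at 0. GATA6 had 12.9 against 1.55 CPM. Below 2% 2 of 3 measured primitive endoderm markers were lower and 1 higher, and at 2% or more 0 of 4 were lower and 1 higher. Both lists thus held genes that differed although their sums were close. Of fibroblast markers 1 of 2 was lower over all and below 2%, and 1 of 2 was higher at 2% or more, with LUM at 0. Interferon response genes, which cells switch on when they sense foreign RNA, differed by class. They summed to 125 against 301 CPM below 2%, with 4 of 4 lower, and to 99.1 against 59.5 CPM at 2% or more, with 1 of 3 higher and 1 lower. The part of any of these lists in the members' pattern was not tested.

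In the 322 ASO_L1 cells with a member but no TPRX1, 8 of 8 measured 8C markers were at least 2-fold higher. Their median log2 ratio was 3.21 and their sum 347 CPM. In the 568 ASO_L1 cells with TPRX1 but no member, 8 of 8 were so too, with a median of 3.42 and 941 CPM. Higher 8C markers were thus not particular to cells with a member. Below 2% MT- the sums were 682 CPM with a member alone, 1559 with TPRX1 alone and 317 with neither. At 2% or more they were 114, 454 and 42.5 CPM. In SO_L1 the sums of 8C markers were 3021 CPM in 17 cells with a member and TPRX1. They were 428 in 103 cells with a member alone, 289 in 138 with TPRX1 alone and 29.3 in cells with neither. Of the 17 cells 16 lay below 2% MT-, against 1727 of the 6295 with neither. Below 2% the sums were 3085, 829, 696 and 94.4 CPM in the same order. At 2% or more they were 0 in 1 cell, 91.2, 24.9 and 10.7 CPM.

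Most member-positive cells had UMIs of 1 member. In ASO_L1, 458 cells had 1 member, 58 had 2, 25 had 3, 8 had 4 and 5 had 5. In SO_L1 the numbers were 113, 3, 3, 0 and 1. The 38 ASO_L1 cells with 3 or more members held 47.0% of all member UMIs of that library, and the 4 such SO_L1 cells held 41.8%. Of those cells, 37 of 38 in ASO_L1 and 3 of 4 in SO_L1 had TPRX1, 29 and 4 lay below 2% MT-, and 22 and 3 had ZSCAN4. TRIM60 was in 36 of the 38 ASO_L1 cells, RFPL1 in 36, RFPL2 in 34, TRIM48 in 13, TRIM43 in 7, RFPL4A in 6 and RFPL4B in 0. Their median depth was 45520 UMIs, lower than the library's 53959.5.

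**Figure D4:**
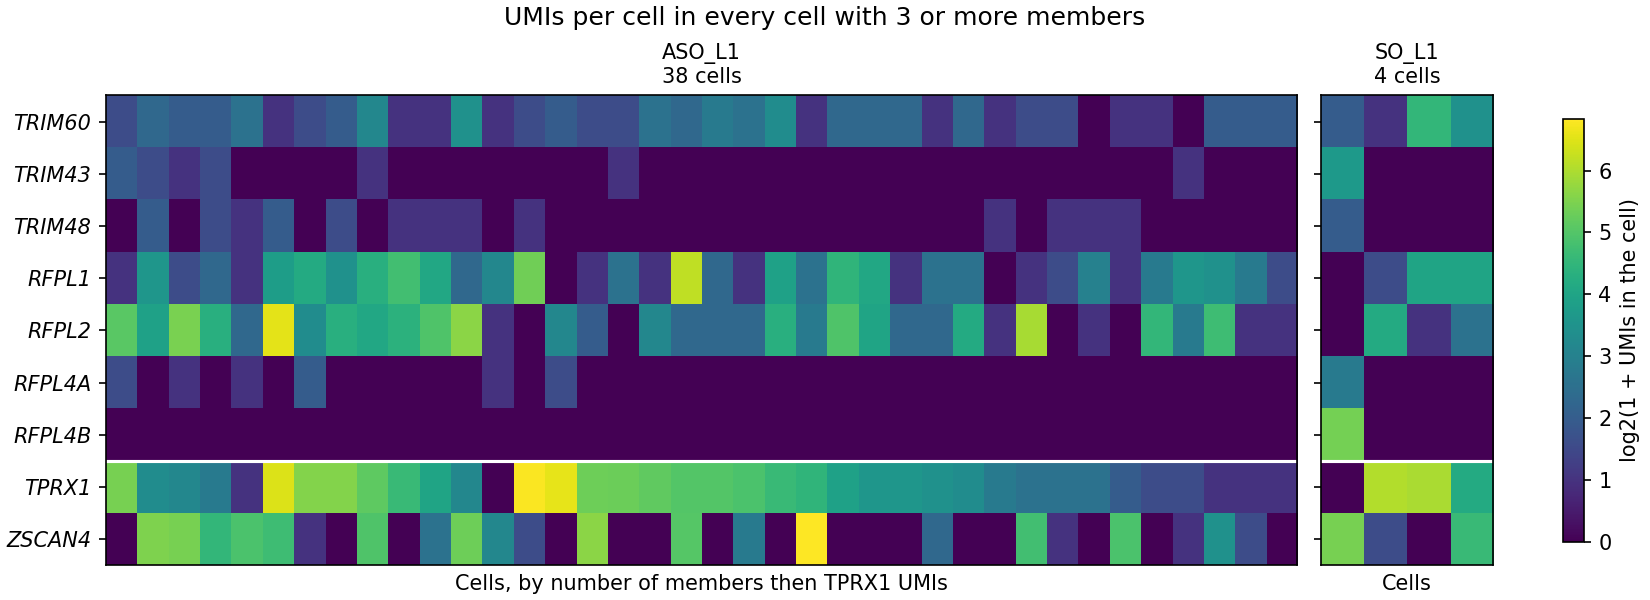
UMIs per cell, as log2(1 + UMIs), of the 7 members (above the white line) and of TPRX1 and ZSCAN4 (below it) in each cell with 3 or more members, 38 in ASO_L1 (left) and 4 in SO_L1 (right). The first SO_L1 column is the cell with 41 RFPL4B UMIs and no TPRX1, and no ASO_L1 cell in the panel holds RFPL4B.

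RFPL1 and RFPL2 were found together in 38 ASO_L1 cells, 22.0% of RFPL1-positive and 24.4% of RFPL2-positive cells, and 36 of the 38 had TPRX1. TRIM60 was found with RFPL1 in 58 cells, 18.3% of TRIM60-positive and 33.5% of RFPL1-positive cells, and with RFPL2 in 51. TRIM43 was with TRIM60 in 7 of 10 cells and TRIM48 was with TRIM60 in 14 of 20. Of the 7 RFPL4B-positive ASO_L1 cells 0 had TPRX1 (0% to 41.0%), 6 had another 8C marker, 1 had RFPL1 and 1 had RFPL4A. In SO_L1, the cell with 41 RFPL4B UMIs also held TRIM60, TRIM43, TRIM48 and RFPL4A.

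The genes most like a member across the 9084 ASO_L1 cells were ranked by Pearson correlation of log2(1 + UMIs per 10000), as a description over cells that share 1 library and differ in depth. RFPL2 was nearest to RFPL1 (r = 0.62 in ASO_L1 and 0.49 in SO_L1). After RFPL2, the genes most like RFPL1 were RIPPLY1 (0.53), GNRH1 (0.50), AL589923.1 (0.50) and AC025171.5 (0.49). For RFPL2 they were, after RFPL1, GNRH1 (0.57), AC025171.5 (0.53), RFPL3 (0.51) and SLC34A2 (0.51). For TRIM60 they were AC243829.2 (0.44), AL592295.3 (0.43), SLC34A2 (0.41), TPRX1 (0.41) and KHDC1L (0.41). In SO_L1, GNRH1 had 0.09 with RFPL1 and 0.28 with RFPL2, although it was found in 298 cells. AL589923.1 had 0.06 with RFPL1, on 16 cells, and RIPPLY1 was in 1 cell there. AC025171.5, on 9 SO_L1 cells, had 0.42 with RFPL1 and 0.33 with RFPL2. With RFPL2, RFPL3 had 0.77 on 4 SO_L1 cells and SLC34A2 0.48. With TRIM60 the SO_L1 values were 0.28 (AC243829.2), 0.26 (AL592295.3), 0.46 (SLC34A2), 0.34 (TPRX1) and 0.43 (KHDC1L). A few cells held much of the RFPL1 and RFPL2 UMIs, and their weight in these values was not tested. RFPL1, RFPL2 and RFPL3 share sequence, and the part of shared reads in their likeness was not tested.

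Of the 17 copies and relatives in the matrices, 5 had at least 50 UMIs. RFPL3 had 75 UMIs in 50 ASO_L1 cells and 6 UMIs in 4 SO_L1 cells, a ratio of 6.85, and 31 of the 50 ASO_L1 cells had TPRX1. TRIM75P, on chromosome 4 beside TRIM60, had 93 and 30 UMIs, a ratio of 1.70, and 45 of its 64 ASO_L1 cells had TPRX1. TRIM61, whose coding bases match TRIM60 at 82.7%, was common and had a ratio of 1.43, and RFPL3S stood at 0.867. RFPL4AL1 had 19 UMIs in ASO_L1 and 1 in SO_L1, beside 30 and 7 for RFPL4A. TRIM43B had 5 and 2 UMIs. TRIM49 had 10 UMIs in 7 ASO_L1 cells and 15 in SO_L1, all in the cell described above. It matched TRIM48 at 93.3% of 624 aligned coding bases, against 79.3% for TRIM43, the only other gene aligned with TRIM48. TRIM49D1 and TRIM49D2, which were not aligned with TRIM48, shared more 50-base windows with it than TRIM49 did. RFPL1S, an antisense gene that overlaps RFPL1 (chr22:29436534-29478175, minus strand), had 5748 UMIs in ASO_L1 and 5920 in SO_L1, a ratio of 0.532. It was found in 28.9% (22.3% to 36.3%) of RFPL1-positive and 36.5% (35.5% to 37.5%) of RFPL1-negative ASO_L1 cells, at 12.7 against 11.5 CPM. In SO_L1 it was found in 8 of 12 (34.9% to 90.1%) RFPL1-positive and 48.0% of RFPL1-negative cells, at 32.5 against 21.6 CPM. The sources used here do not say whether counting used strand, so a read from the overlap could have been counted to either gene. The counts of RFPL1 and RFPL1S differed in library ratio, 8.29 and 0.532.

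Other TRIM genes, 63 in the matrices with a symbol of TRIM plus digits only, did not show this pattern as a list. The list holds TRIM49 and TRIM61 but not TRIM75P or TRIM43B. Of the 56 measured, 3 were higher by 2-fold or more in ASO_L1 and 2 lower, and their median log2 ratio was 0.04 beside -0.02 for all genes. TRIM55 (2.40) and TRIM29 (2.19) had the largest ratios, TRIM5 (0.422) and TRIM34 (0.478) the smallest. TRIM24 (0.710) and TRIM28 (1.03), both chromatin regulators, had most UMIs. Of 29 other 8C genes listed, 27 were in the matrices and 20 measured, and 12 of these passed the line upwards and 0 downwards, with a median log2 ratio of 2.02. ZNF280A (9.53) and CPHXL2 (9.41) had the largest ratios, DPRX (0.522) and ARGFX (0.528) the smallest. CCNA1 (4.05) and PNP (1.96) had most UMIs. TPRX1 had a ratio of 6.87 (6.22 to 7.60).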

How the data were processed

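UMIs were measured with the 10x 3′ v3 kit, per the labels' protocols, in 1 ASO_L1 and 1 SO_L1 library. The deposited matrices hold raw counts of UMIs per gene and barcode, which the authors made with Cell Ranger (version 7.1.0, build hg38; submitters' processing notes). The sources used here do not give the annotation release, cell calling, strand, or the handling of intronic reads and of reads of several genes.

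Cells were kept from 1000 genes and under 20% MT- UMIs. Kept cells hold 499106701 UMIs in ASO_L1 and 273349662 in SO_L1. UMIs were summed over cells. Ratios carry conditional exact binomial, levels exact Poisson and shares exact Clopper-Pearson 95% intervals, all of counting error only. A sum of 0 was set to 3 UMIs in a fold, and 3 cells of the total is the limit given for a share of 0. Genes were measured from 50 UMIs in both compared sets together. Cells were thinned once to 8000 UMIs without replacement. The conditional interval was tested on simulated sums of independent UMIs, which does not cover UMIs that cluster in few cells. No doublet caller was run, and cells above the 95th percentile of UMIs were left out as an alternative.

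Members, lists and the MT- cut were chosen with earlier results of these data known. Named genes are all members, TPRX1, relatives, the 5 genes most like each member found in at least 30 ASO_L1 cells, and per described list those with the 2 largest and 2 smallest ratios and the 2 with most UMIs. Other names were chosen after their values were seen. CPHXL2 appears in the matrices under the identifier-matched symbol AC025287.4. Alternatives were other cell filters, thinning, totals without MT- genes, MT- cuts of 1% and 5%, deepest cells, shared barcodes and the 10 highest cells left out, at least 2 UMIs for a positive cell, 1.5-fold, and minimums of 20 and 100 UMIs. Leaving out 1 SO_L1 cell, and the smaller copies of shared barcodes, was added after the data were seen. GENCODE 29 and RefSeq GRCh38.p14 were matched by gene identifier and symbol. Coding and promoter identities come from pairwise alignments with Biopython 1.88. Python 3.11.15, numpy 2.4.6, scipy 1.17.1, pandas 2.3.3 and matplotlib 3.10.9 were used.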

Additional observations from a re-analysis of the deposited data

Results flagged for a closer look

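Barcodes outside the cell filter, whose sequence was not kept in the other library, held UMIs of 3 members, TRIM60, RFPL2 and RFPL1, at higher levels in ASO_L1 than in SO_L1. TRIM60 had 1.56 CPM there in ASO_L1 (16 UMIs, 10 of them on 1 barcode) and 0.334 in SO_L1 (3 UMIs). RFPL2 had 1.46 CPM in ASO_L1 (15 UMIs on 11 barcodes) and 0.111 in SO_L1 (1 UMI). RFPL1 had 0.389 CPM in ASO_L1 (4 UMIs on 4 barcodes) and 0 in SO_L1. In kept ASO_L1 cells the levels were 1.62 CPM for TRIM60, 1.64 for RFPL2 and 1.33 for RFPL1. TRIM43, TRIM48, RFPL4A and RFPL4B had 0 UMIs on these barcodes in either library. Over all barcodes outside the filter, shared ones included, the difference was smaller or absent: TRIM60 had 1.48 CPM in ASO_L1 and 0.676 in SO_L1, RFPL2 1.38 and 0.752, and RFPL1 0.369 and 0.376, the last on 4 and 5 UMIs. TRIM48 had 1 UMI in SO_L1 over these.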

How the results depend on the processing

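The count of 3 members at least 2-fold higher in ASO_L1 lay between 2 and 3 under 11 of 12 alternatives and was 5 with a minimum of 20 UMIs, when TRIM48 and RFPL4A entered. RFPL1 and RFPL2 had ratios of at least 6.89 and 7.57 under all alternatives over kept cells, and TRIM60 1.87 to 3.24. Leaving the SO_L1 cell with 5 members out of that library alone raises the RFPL4B ratio by construction, and it was then 1.37. Shares of cells with any member depend on depth and on the definition of a positive cell. Thinned to 8000 UMIs they were 5.50% (ASO_L1, below 2% MT-), 0.901% (ASO_L1, 2% or more), 1.54% (SO_L1, below 2%), 0.230% (SO_L1, 2% or more) and 21.4% (SO_L1, TPRX1-positive). With at least 2 UMIs they were 6.12%, 0.824%, 1.51% and 0.213% in the same order of classes, and 18.9% in TPRX1-positive ASO_L1 cells. With no cell filter they were 2.91% (ASO_L1, 2% or more), 2.42% (SO_L1, below 2%) and 0.610% (SO_L1, 2% or more). In ASO_L1 at or above the cut, the share was 2.85% without barcodes of both libraries and 2.77% with the cut at 5%. In all of these the share below the cut stayed above that at or above it in the same library. Of 196 shares of single members in TPRX1-positive or TPRX1-negative cells, 34 moved outside the counting interval. No paired analysis was possible because each group has 1 library. Depth limits TRIM43, TRIM48, RFPL4A and RFPL4B most.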
